A study of Mus musculus with 12 samples.

Results

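Notch receptors, their ligands, a sugar transferase that tunes them and their HES and HEY target genes were followed through 3 mouse degron lines put through differentiation towards cardiac precursors. The 10 genes were taken by symbol from a table of 35856 genes: the receptors Notch1, Notch2 and Notch3, the ligands Dll1, Dll3 and Jag1, the modifier Lfng, and the targets Hes1, Hey1 and Heyl. Of these, 9 reached 1 TPM in 2 or more libraries and so were among the 15663 genes tested, and Heyl did not. TPM is a read count scaled for transcript length and library size, so levels of different genes can be compared.

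Notch is a receptor that signals between touching cells. A Delta-like or Jagged ligand on one cell binds the receptor on its neighbour, proteases free the intracellular part, and this part joins the DNA-binding protein RBPJ to switch on target genes, of which the HES and HEY repressors are the best known. In the embryo the pathway times the segmentation of the paraxial mesoderm and acts in the endothelium, the valves and the outflow tract of the heart.

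The cells were C57BL/6 mouse embryonic stem cells that carried Tir1, the plant F-box protein that lets auxin mark a tagged protein for degradation. A degron tag (AID) sat on SUZ12, a core subunit of the Polycomb repressive complex PRC2, in the SUZ12-AID line, on the accessory subunit MTF2 in the MTF2-AID line, and on the accessory subunit JARID2 in the AID-JARID2 line. Each line had an auxin group, given 50 µM indole-3-acetic acid, and an untreated group, with 2 libraries of polyadenylated RNA in each of the 6 groups. All were differentiated by 48 h as embryoid bodies, 43 h of reaggregation with VEGF, activin A and BMP4, and 32 h as a monolayer. Each subunit was tagged in 1 line, no group had auxin without a tag, and the labels do not say when auxin was added. The series text calls the libraries of a group biological replicates without saying what separated them. The p-values of the main test measure the spread between replicates pooled over all 6 groups, whatever its source. They do not measure the spread of the 2 groups compared alone, and a gene has the same SE in each line.

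Libraries held 10138920 to 17173072 reads, recovered from the steps of the TPM values. RNA of the tagged gene does not measure loss of its protein: Suz12 was at 106 and 109 TPM with auxin against 113 and 127 TPM untreated in SUZ12-AID, Mtf2 at 26.0 and 24.7 against 22.4 and 21.7 TPM in MTF2-AID, and Jarid2 at 104 and 113 against 45.3 and 43.5 TPM in AID-JARID2. The cardiac precursor label was checked against 12 markers, whose summed level was 1671 to 3018 TPM in 10 libraries and 186 to 226 TPM in the 2 auxin AID-JARID2 libraries. In those 2 the label is less well borne out, with 10 of 11 markers tested lower than in untreated AID-JARID2. Most of the sum in the untreated groups was Hand1, at means of 2421 TPM in SUZ12-AID, 1361 TPM in MTF2-AID and 1858 TPM in AID-JARID2. Nkx2-5 had a mean of 25.9 TPM in auxin SUZ12-AID, but of 1.46 to 5.78 TPM in the other groups. Hand1 and Gata4 were among the markers detected in every library. Tbx5 stayed at or under 0.712 TPM in all 12 and was at 0 in 1 auxin AID-JARID2 library. The replicates of SUZ12-AID stood further apart than those of the other lines: replicate 2 exceeded replicate 1 in the longest of 4 equal groups of transcripts by a median log2 difference of 0.16 with auxin and 0.33 untreated, against -0.04 to 0.05 in the other 4 groups. Notch1, Notch2, Notch3 and Jag1 lay at the 94.0th, 95.6th, 90.3rd and 97.0th percentile of transcript length, and each had more TPM in replicate 2 than in replicate 1 of both SUZ12-AID groups. The part of this difference in their results was not tested.

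**Figure D1:**
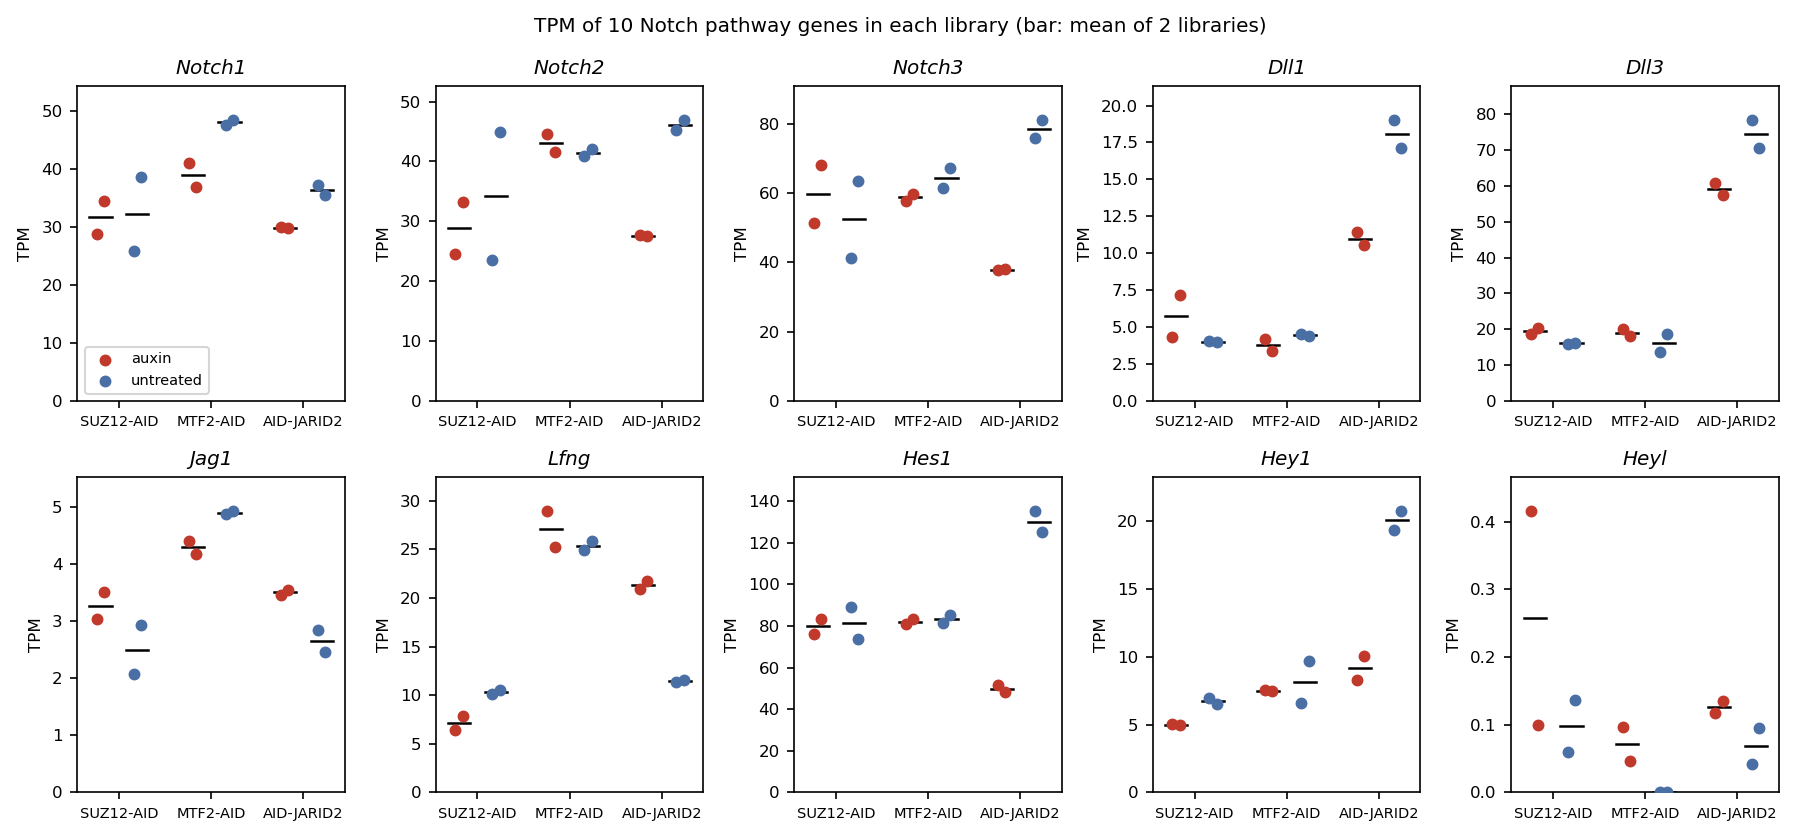
TPM (linear axis) of the 10 Notch pathway genes in each of 12 libraries, with 1 panel per gene, auxin left of untreated within each line, points for libraries and bars for the mean of 2 libraries. Hes1, Hey1 and Notch3 sit lower in both auxin AID-JARID2 libraries than in both untreated ones, Lfng sits higher, and Heyl stays at or under 0.416 TPM.

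In AID-JARID2 cells, auxin went with lower RNA of the receptors Notch2 and Notch3, the ligand Dll1 and the targets Hes1 and Hey1, and with higher RNA of the modifier Lfng. The largest change was in Hes1, which fell by 1.36 on the log2 scale, and Lfng rose by 0.84. In all, 6 of the 9 genes tested passed the threshold, 1 higher and 5 lower, where 36.5% of all genes passed, 19.5% higher and 17.0% lower. Their median log2 fold change was -0.67, against 0.01 over all genes. Fold changes are of TPM + 1, which understates the change of low genes, and the test was limma's, with p-values adjusted over all genes and a threshold of 0.05. In these bulk samples, fewer cells of a type and less RNA per cell cannot be told apart.

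Notch3, a receptor best known from smooth muscle and pericytes, was at 37.7 and 38.1 TPM in the auxin AID-JARID2 libraries, against 75.9 and 81.2 TPM in the untreated ones. The groups did not overlap, and the auxin libraries were the lowest of all 12. Notch3 fell by 1.03 on the log2 scale (SE 0.176, limma adjusted p = 0.001178).

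Notch2, the receptor whose human gene is mutated in some Alagille syndrome and a regulator of the outflow tract in mice, was at 27.7 and 27.5 TPM with auxin, against 45.3 and 47.0 TPM untreated. Both auxin libraries lay below both untreated ones, but other lines held libraries as low. The log2 fold change was -0.72 (SE 0.234, limma adjusted p = 0.0352). That call held in 13 of 22 alternatives. It was lost when any 1 of the 8 AID-JARID2 and MTF2-AID libraries was left out, with log2 fold changes of -0.75 to -0.69. It was also lost with no filter on low values (limma adjusted p = 0.0823). The SE is pooled over all groups, among them untreated SUZ12-AID, where Notch2 was at 23.5 and 44.9 TPM.

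Notch1, the receptor of the endocardium and of haematopoietic emergence, was at 30.1 and 29.8 TPM with auxin, against 37.2 and 35.5 TPM untreated. The groups did not overlap, but the difference did not pass the test (log2 fold change -0.27, SE 0.155, limma adjusted p = 0.2045). It passed in 5 alternatives, with an adjusted p as low as 0.0191 in the 4 AID-JARID2 libraries alone.

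Among ligands, Dll1, which patterns the presomitic mesoderm, was at 11.45 and 10.54 TPM with auxin, against 19.0 and 17.15 TPM untreated. Both AID-JARID2 groups stood above every library of the other lines, with auxin the lower of the pair. Dll1 had a log2 fold change of -0.67 (SE 0.186, limma adjusted p = 0.01759), and lost its call when any 1 of the 4 AID-JARID2 libraries was left out (-0.74 to -0.60, adjusted p 0.051 to 0.105).

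Dll3 encodes a divergent ligand that does not activate Notch in neighbouring cells and is known from somite segmentation. It was at 60.9 and 57.5 TPM with auxin, against 78.5 and 70.55 TPM untreated, without overlap. The log2 fold change of -0.33 did not pass the test (SE 0.127, limma adjusted p = 0.0707). Jag1, the Jagged ligand whose human gene is mutated in most Alagille syndrome, was at 3.47 and 3.56 TPM with auxin, against 2.84 and 2.47 TPM untreated. Its groups did not overlap either, and its log2 fold change of 0.31 did not pass (SE 0.152, limma adjusted p = 0.1492). With voom on the recovered reads both passed (adjusted p = 0.0106 for Dll3 and 0.0287 for Jag1), and Dll3 passed in 5 further alternatives and Jag1 in 1.

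Lfng encodes lunatic fringe, which adds N-acetylglucosamine to fucose on the receptors, changes their response to ligands and oscillates in the segmentation clock. Its level was 20.98 and 21.7 TPM in the auxin AID-JARID2 libraries, against 11.4 and 11.5 TPM in the untreated ones. The auxin libraries were close to each other and well above the untreated ones, and Lfng rose by 0.84 on the log2 scale (SE 0.107, limma adjusted p = 0.0001792). Of the 9 genes it was the one that passed in the upward direction.

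The genes lie apart in the genome, on chromosomes 2 (Notch1 and Jag1), 3 (Notch2 and Hey1), 4 (Heyl), 5 (Lfng), 7 (Dll3), 16 (Hes1) and 17 (Notch3 and Dll1). In mm10, with the gene models of GENCODE release 21 for mouse, Lfng spans chr5:140607320-140615545 on the plus strand, Hes1 chr16:30064384-30067796 on the plus strand and Notch3 chr17:32120820-32166852 on the minus strand. Dll1 spans chr17:15367354-15376872, Dll3 chr7:28293553-28302238, Jag1 chr2:137081456-137116644, Notch1 chr2:26457903-26516663 and Hey1 chr3:8663359-8667256, all on the minus strand. Notch2 spans chr3:98013527-98150361 and Heyl chr4:123233556-123249875 on the plus strand.

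The 250 bases before the RefSeq start were available for 7 of the 10 genes on GRCm38.p6, with Dll1 listed at 2 starts. RefSeq starts can differ from the ends of the GENCODE spans above. The windows of Notch1 (chr2:26503823-26504072) and Dll3 (chr7:28301786-28302035) and the Dll1 window at chr17:15375824-15376073 lie within those spans. Those of Lfng and Notch2 run past the span starts. No window was available for the targets Hes1, Hey1 and Heyl, so their promoters were not searched for motifs. Lfng, Notch3 and Notch2 are printed because Lfng and Notch3 moved in opposite directions in AID-JARID2 and Notch2 has the highest CpG density of the windows. Each reads 5′ to 3′ on the strand of its gene, and capitals mark the core of the RBPJ motif, TGGGAA, on either strand. Lfng is at chr5:140607091-140607340 (plus strand), Notch3 at chr17:32166891-32167140 (minus strand) and Notch2 at chr3:98013288-98013537 (plus strand).
Lfng: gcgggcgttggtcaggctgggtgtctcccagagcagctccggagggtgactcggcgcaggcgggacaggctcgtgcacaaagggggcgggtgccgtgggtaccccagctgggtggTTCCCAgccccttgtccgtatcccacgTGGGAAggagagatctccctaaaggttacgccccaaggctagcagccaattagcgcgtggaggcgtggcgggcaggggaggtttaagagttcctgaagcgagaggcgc
Notch3: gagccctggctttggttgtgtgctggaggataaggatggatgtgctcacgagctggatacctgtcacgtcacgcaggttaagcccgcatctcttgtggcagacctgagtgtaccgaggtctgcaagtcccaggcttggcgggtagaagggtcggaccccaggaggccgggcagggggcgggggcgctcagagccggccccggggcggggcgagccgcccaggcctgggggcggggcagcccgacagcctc
Notch2: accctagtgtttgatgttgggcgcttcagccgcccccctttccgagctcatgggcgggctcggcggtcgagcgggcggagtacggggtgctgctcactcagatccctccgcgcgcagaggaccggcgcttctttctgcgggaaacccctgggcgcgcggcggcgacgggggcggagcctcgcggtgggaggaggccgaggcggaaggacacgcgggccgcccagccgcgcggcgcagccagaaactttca

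Of the 8 windows, Lfng alone held the RBPJ core, which 21.6% of 32851 promoters hold. It had 2 matches, 108 to 103 bases before the start on the strand of the gene and 135 to 130 bases before it on the other strand. The first belonged to the longer form GTGGGAA, which 5.42% of promoters hold, and overlapped a CACGTG E-box, which 6.02% hold. An N-box, CACNAG, bound by HES repressors, was in the windows of Notch1, Notch2, Notch3 (2 matches) and Lfng, and in 36.7% of all promoters, and any E-box, CANNTG, in those of Dll1, Dll3, Jag1 and Lfng and in 66.2%. All motifs were searched on both strands, and a match is a string of letters, not a shown binding site. The observed over expected CpG ratio of the windows was 0.588 to 1.06, against a median of 0.374 over all promoters, and that of Notch2 was at the 96.5th percentile.

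The target Hes1, a basic helix-loop-helix repressor that also responds to other signals, was at 51.5 and 48.4 TPM in the auxin AID-JARID2 libraries, against 135 and 125 TPM in the untreated ones. The auxin libraries were the lowest of the 12 and the untreated ones the highest, and Hes1 fell by 1.36 on the log2 scale (SE 0.0907, limma adjusted p = 1.907e-06). Hey1, a repressor of the same family with roles in the atria and valves, was at 8.295 and 10.0 TPM with auxin, against 19.35 and 20.7 TPM untreated. It fell by 1.05 without overlap (SE 0.159, limma adjusted p = 0.0005542). Unlike Hes1, its auxin mean of 9.17 TPM was above the means of the other lines' groups, 4.98 to 8.14 TPM, and overlapped untreated MTF2-AID. Heyl, another gene of the HEY family, was at 0.118 and 0.135 TPM with auxin, against 0.0425 and 0.0953 TPM untreated, from 3 and 4 against 1 and 2 reads. Over all 12 libraries it had 0 to 11 reads, so no fold is given and a difference was not detectable at this depth.

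All 9 genes tested had both auxin libraries of AID-JARID2 on 1 side of both untreated ones, where 72.7% of all genes did. The calls of Hes1, Hey1, Notch3 and Lfng held in every alternative setting run.

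Beside these changes, other cell type markers moved in AID-JARID2. The 12 cardiac precursor markers summed to 226 and 186 TPM with auxin, against 2356 and 2293 TPM untreated, and of 11 tested 0 rose and 10 fell. The 10 pluripotent markers summed to 2752 and 2769 TPM, against 433 and 417 TPM, with 9 of 10 higher and 1 lower, and the 10 neural markers to 329 and 345 TPM, against 80.6 and 79.3 TPM, with 5 of 6 tested higher. Presomitic and paraxial markers summed to 111 and 104 TPM, against 237 and 231 TPM, with 2 of 8 tested higher and 2 lower, and Ripply2 among them was at 0 in 9 of the 12 libraries. Msgn1, the most abundant of them, was at 58.2 TPM in both auxin libraries, against 185 TPM in both untreated ones, while Tcf15 and Hes7 were the higher genes. Endothelial markers summed to 10.7 and 13.6 TPM, against 23.9 and 25.1 TPM, with 2 of 12 higher and 1 lower and Emcn at 0 in all 4 libraries. The lower gene was Pecam1, at 3.01 and 2.35 TPM against 18.0 and 20.6 TPM, and the higher ones were Esam and Notch4. Primitive blood markers summed to 3.91 and 4.63 TPM, against 7.83 and 6.15 TPM, with 0 of 7 tested higher and 1 lower. The part of these shifts in the Notch results was not tested.

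**Figure D2:**
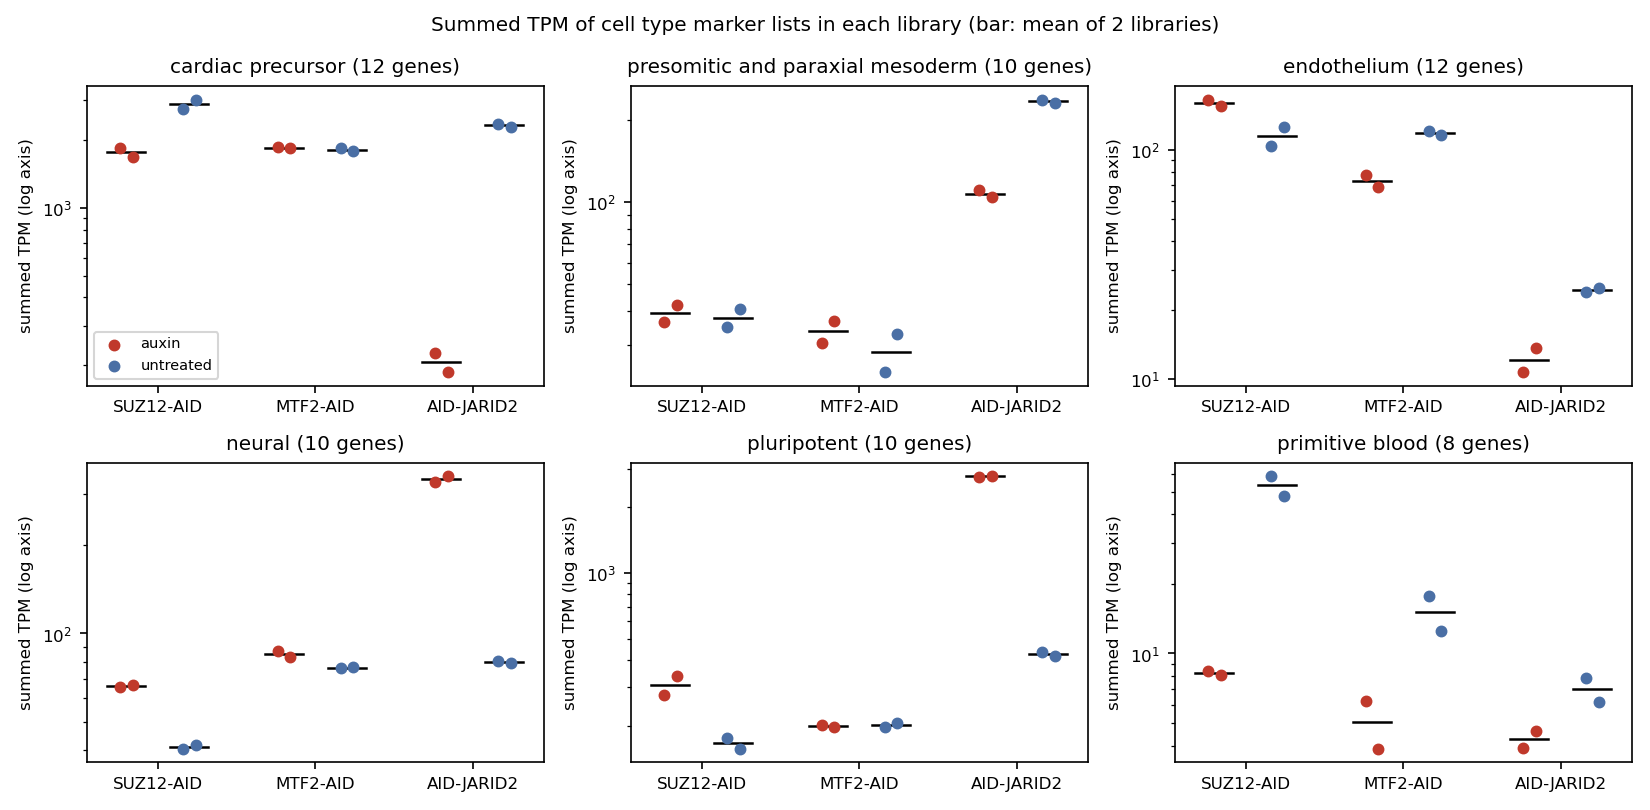
Summed TPM (log axis) of 6 lists of cell type markers in each library, with auxin left of untreated within each line, points for libraries and bars for the mean of 2. In AID-JARID2 the cardiac list is at 186 to 226 TPM with auxin and 2293 to 2356 TPM untreated, and the pluripotent list is at 2752 to 2769 TPM with auxin and 417 to 433 TPM untreated.

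In SUZ12-AID cells, 1 of the 9 genes tested passed, Lfng, which fell, where 19.1% of all genes passed and 4.05% fell. The median log2 fold change of the 9 genes was 0.00, against 0.06 over all genes. Both auxin libraries lay on 1 side of both untreated ones for 5 of the 9 genes, where 49.3% of all genes did.

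Lfng, the gene with RBPJ motif matches in the promoter window shown, was at 6.45 and 7.88 TPM in the auxin SUZ12-AID libraries, against 10.1 and 10.6 TPM in the untreated ones. The auxin libraries were the lowest of all 12. Lfng fell by 0.48 on the log2 scale (SE 0.107, limma adjusted p = 0.01205), opposite in sign to its change in AID-JARID2. The call was lost without auxin replicate 1 (-0.35, adjusted p = 0.0658), with a variance weight per line (adjusted p = 0.0708) and with the 4 SUZ12-AID libraries alone (adjusted p = 0.2152).

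The receptors overlapped between the SUZ12-AID groups. Notch1 was at 28.9 and 34.6 TPM with auxin, against 25.9 and 38.7 TPM untreated, Notch2 at 24.5 and 33.2 TPM, against 23.5 and 44.9 TPM, and Notch3 at 51.35 and 68.2 TPM, against 41.3 and 63.5 TPM. Replicate 2 was the higher one in both groups for all 3 receptors. Their log2 fold changes were 0.00, -0.18 and 0.20, with adjusted p of 0.486 to 0.998 in limma. Without untreated replicate 1, the log2 fold change of Notch2 was -0.64, and without untreated replicate 2 that of Notch3 was 0.51.

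The ligands were higher in both auxin libraries of SUZ12-AID without passing. Dll1 was at 4.34 and 7.20 TPM with auxin, against 4.07 and 3.96 TPM untreated (log2 fold change 0.40, limma adjusted p = 0.1765), and passed without auxin replicate 1 (0.71, adjusted p = 0.0157). Dll3 was at 18.6 and 20.5 TPM, against 16.0 and 16.25 TPM (0.26, limma adjusted p = 0.193). Jag1 was at 3.04 and 3.52 TPM, against 2.07 and 2.93 TPM (0.30, limma adjusted p = 0.2201), and its sign turned under quantile normalization, to -0.0654, while voom called it (adjusted p = 0.0389).

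The targets did not pass in SUZ12-AID. Hes1 was at 76.1 and 83.5 TPM with auxin, against 89.2 and 73.7 TPM untreated, and the groups overlapped (log2 fold change -0.02, limma adjusted p = 0.8987). Hey1 was at 5.03 and 4.93 TPM, against 6.98 and 6.53 TPM, without overlap (-0.37, limma adjusted p = 0.1396), and passed under quantile normalization (-0.71, adjusted p = 0.0157). Heyl was at 0.416 and 0.0994 TPM, against 0.0596 and 0.137 TPM, and the higher auxin library held 11 reads.

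Endothelial markers summed to 166 and 156 TPM with auxin in SUZ12-AID, against 104 and 125 TPM untreated, with 10 of 12 higher and 1 lower. Cardiac precursor markers summed to 1848 and 1671 TPM, against 2737 and 3018 TPM, a lower sum, although 6 of 11 tested were higher and 1 lower. The lower one was Hand1, the most abundant of them, which fell by 1.23 on the log2 scale (limma adjusted p = 3.092e-05). Pluripotent markers summed to 275 and 337 TPM, against 176 and 157 TPM, with 8 of 10 higher, and neural markers to 65.8 and 66.4 TPM, against 40.4 and 41.7 TPM, with 4 of 6 tested higher. Presomitic and paraxial markers had 3 of 8 tested higher, and primitive blood markers summed to 8.37 and 8.07 TPM, against 58.5 and 48.1 TPM, with 5 of 7 tested lower. Over all genes 2362 were called higher and 635 lower, but 2103 and 1548 under median-of-ratios scaling and 1605 and 1418 under quantile normalization, which moved the median of all genes to -0.04. They were 979 and 215 with a variance weight per line, 129 and 27 in the 4 SUZ12-AID libraries alone, 1109 and 265 without auxin SUZ12-AID replicate 2, and 1811 and 1427 without untreated SUZ12-AID replicate 1, so the shares of all genes given for SUZ12-AID depend on these choices.

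In MTF2-AID cells, 0 of the 9 genes tested passed in limma, where 0.0638% of all genes passed, and 0 passed with voom on the recovered reads. At an unadjusted p under 0.05 the count was also 0 of 9, where 9.51% of all genes passed. The median log2 fold change was -0.09, against 0.01 over all genes, and 4 of the 9 genes did not overlap between the groups, where 45.9% of all genes did not. With a variance weight per line, 55 of all genes were called higher and 109 lower in MTF2-AID, and with that line alone 0 and 0. None of the 9 genes was called in either setting.

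Notch1 was at 41.0 and 36.9 TPM in the auxin MTF2-AID libraries, against 47.7 and 48.6 TPM in the untreated ones. Both auxin libraries were lower, and the log2 fold change of -0.30 (95% interval -0.64 to 0.05) did not pass (limma adjusted p = 0.607). Notch2 was at 44.6 and 41.7 TPM, against 40.9 and 42.0 TPM (95% interval of the log2 fold change -0.47 to 0.58). Notch3 was at 57.8 and 59.6 TPM, against 61.4 and 67.1 TPM (-0.52 to 0.27). Of these receptors Notch1 and Notch3 did not overlap between the groups.

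Dll1 was at 4.20 and 3.35 TPM with auxin in MTF2-AID, against 4.50 and 4.41 TPM untreated (95% interval of the log2 fold change -0.61 to 0.22). Dll3 was at 20.0 and 18.1 TPM, against 13.7 and 18.6 TPM (-0.05 to 0.52). Jag1 was at 4.41 and 4.18 TPM, against 4.88 and 4.93 TPM (-0.50 to 0.18). Dll1 and Jag1 were lower in both auxin libraries, and Dll3 overlapped.

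Lfng was at 28.9 and 25.2 TPM with auxin in MTF2-AID, against 24.9 and 25.8 TPM untreated (95% interval of the log2 fold change -0.15 to 0.33). Hes1 was at 80.9 and 83.4 TPM, against 81.2 and 85.5 TPM (-0.22 to 0.18). Hey1 was at 7.51 and 7.45 TPM, against 6.56 and 9.71 TPM (-0.44 to 0.27). These 3 genes overlapped between the groups, and Heyl had 2 and 1 reads with auxin against 0 and 0 untreated. Of the 6 marker lists, 0 genes were called in MTF2-AID, and endothelial markers summed to 77.4 and 68.7 TPM with auxin against 121 and 116 TPM untreated.

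**Figure D3:**
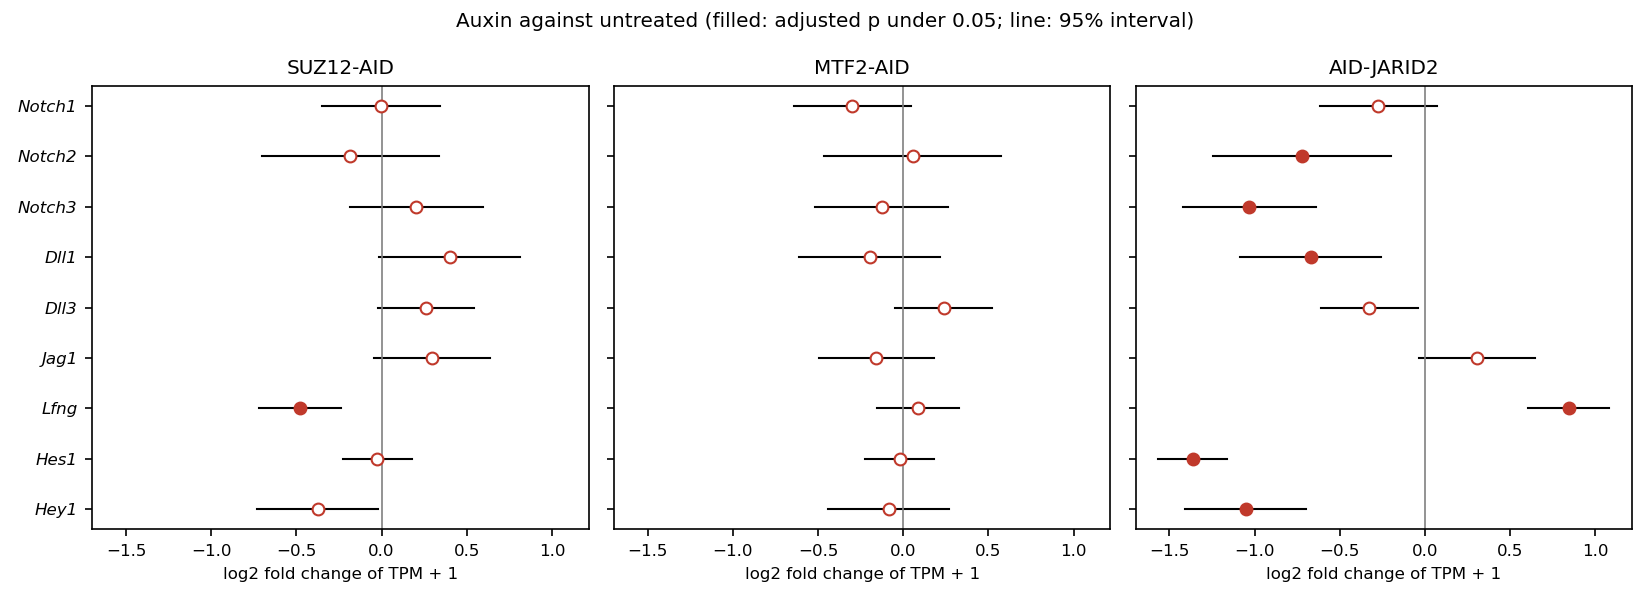
Log2 fold change of TPM + 1, auxin against untreated, of the 9 genes tested, with 1 panel per line and bars for the 95% interval from limma. In AID-JARID2 the intervals of Hes1, Hey1, Notch3, Notch2 and Dll1 lie below 0 and that of Lfng above 0, while Lfng in SUZ12-AID is at -0.48. The intervals of Dll3 in AID-JARID2 and Hey1 in SUZ12-AID also lie below 0, but neither gene passed after adjustment.

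The auxin effects of the lines were then tested against each other. The effect in AID-JARID2 minus that in SUZ12-AID passed for 5 of the 9 genes, 1 higher and 4 lower, where 24.0% of all genes passed, 9.0% higher and 15.0% lower. Lfng had the positive difference, 1.32 on the log2 scale (SE 0.152, limma adjusted p = 0.0002035), and Hes1 (-1.34), Notch3 (-1.24), Dll1 (-1.07) and Dll3 (-0.59) the negative ones. Hey1, at -0.68, did not pass (limma adjusted p = 0.0532), but did in 5 alternatives, down to an adjusted p of 0.02.

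Against MTF2-AID, the effect in AID-JARID2 also passed for 5 genes, 1 higher and 4 lower, where 24.3% of all genes passed, 12.6% higher and 11.7% lower. Lfng differed by 0.76, Hes1 by -1.34, Hey1 by -0.97, Notch3 by -0.90 and Dll3 by -0.56. The effect in MTF2-AID minus that in SUZ12-AID passed for 1 gene, Lfng, at 0.57 (SE 0.152, limma adjusted p = 0.04058), where 11.1% of all genes passed and 2.0% were higher. Each pair of these differences shares the libraries of 1 line, so the counts are not independent. Single SUZ12-AID libraries decided receptor values here. Without untreated SUZ12-AID replicate 2, Notch1 (-0.55, adjusted p = 0.0178) and Notch2 (-0.99, adjusted p = 0.00422) passed in AID-JARID2 minus SUZ12-AID, and Notch1 (-0.58, adjusted p = 0.028) and Notch3 (-0.64, adjusted p = 0.0465) in MTF2-AID minus SUZ12-AID. In MTF2-AID minus SUZ12-AID, Notch2 passed without untreated SUZ12-AID replicate 1 (0.69, adjusted p = 0.0355) and Dll1 without auxin SUZ12-AID replicate 1 (-0.91, adjusted p = 0.0229).

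Untreated lines differed in Notch genes before any auxin. Untreated AID-JARID2 had more Dll1, Dll3, Hes1 and Hey1 RNA than either other untreated line. Against untreated SUZ12-AID, 5 of 9 genes were higher and 0 lower, where 27.6% of all genes passed and 15.2% were higher. Against untreated MTF2-AID, 4 were higher and 2 lower, where 33.4% passed, 15.8% higher and 17.6% lower. Each tag was in 1 line, so tag and line cannot be told apart.

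Dll3 showed the largest of these differences. It was at 78.5 and 70.55 TPM in untreated AID-JARID2, against 13.7 and 18.6 TPM in untreated MTF2-AID and 16.0 and 16.25 TPM in untreated SUZ12-AID. The log2 differences were 2.15 from MTF2-AID and 2.14 from SUZ12-AID (limma adjusted p = 1.954e-06 and 2.404e-06). Dll1, at 19.0 and 17.15 TPM in untreated AID-JARID2, was higher by 1.81 than in MTF2-AID and by 1.93 than in SUZ12-AID (limma adjusted p = 6.146e-05 and 5.236e-05).

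Of the targets, Hey1 was higher in untreated AID-JARID2 by 1.22 than in MTF2-AID and by 1.44 than in SUZ12-AID (limma adjusted p = 0.000276 and 0.0001271). Hes1 was higher by 0.64 and 0.67 in the same comparisons (limma adjusted p = 0.0004885 and 0.0004408). Notch3 was higher than in SUZ12-AID (0.61, limma adjusted p = 0.02862), but the call was lost without either untreated AID-JARID2 library or untreated SUZ12-AID replicate 1 (0.30 to 0.65, adjusted p 0.0818 to 0.154) and with no filter on low values (adjusted p = 0.0682). Without untreated SUZ12-AID replicate 2, Notch1 (0.47, adjusted p = 0.00853) and Notch2 (0.94, adjusted p = 0.00117) were also higher than in SUZ12-AID.

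Lfng and Jag1 passed as higher in untreated MTF2-AID than in either other untreated line. Lfng was at 24.9 and 25.8 TPM in untreated MTF2-AID, against 10.1 and 10.6 TPM in untreated SUZ12-AID, a log2 difference of 1.22 (limma adjusted p = 0.0003412). In untreated AID-JARID2 it was at 11.4 and 11.5 TPM and differed from MTF2-AID by -1.08 (limma adjusted p = 4.933e-05). Jag1, at 4.88 and 4.93 TPM in untreated MTF2-AID, was higher by 0.76 than in SUZ12-AID (limma adjusted p = 0.01409). In untreated AID-JARID2 Jag1 differed from MTF2-AID by -0.69 (limma adjusted p = 0.005912). Notch1 too had its 2 highest libraries of the untreated cells there. It was at 37.2 and 35.5 TPM in untreated AID-JARID2, against 47.7 and 48.55 TPM in untreated MTF2-AID, without overlap. That difference of -0.39 did not pass (SE 0.155, limma adjusted p = 0.0779), and it passed in 6 alternatives, with an adjusted p as low as 0.00659 without untreated SUZ12-AID replicate 1.

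With Notch1, that makes 3 genes higher and 0 lower in untreated MTF2-AID against SUZ12-AID, where 8.65% of all genes passed and 5.5% were higher. Notch1 differed by 0.59 (limma adjusted p = 0.0443), a call lost on leaving out any 1 library but untreated SUZ12-AID replicate 2 (0.31 to 0.60, adjusted p 0.0504 to 0.171) or with no filter (adjusted p = 0.0935). Jag1 lost its call without either untreated MTF2-AID library or untreated SUZ12-AID replicate 1 (0.59 to 0.77, adjusted p 0.0674 to 0.0779), and without untreated AID-JARID2 replicate 2 in the comparison with that line (-0.62, adjusted p = 0.0511). Without untreated SUZ12-AID replicate 2, the log2 difference from SUZ12-AID was 0.79 for Notch2 and 0.62 for Notch3. The median over all genes was then 0.13, against 0.07 with that library. Notch1 and Jag1 are among the longest transcripts, and of 4 equal groups of genes by transcript length the longest had a median log2 difference of 0.19 in this comparison, against -0.05 in the shortest.

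Markers of presomitic and paraxial mesoderm, the tissue in which Dll1, Dll3 and Lfng are best known, summed to 237 and 231 TPM in untreated AID-JARID2, against 23.8 and 32.9 TPM in untreated MTF2-AID and 34.9 and 40.4 TPM in untreated SUZ12-AID. Most of that sum was Msgn1, at a mean of 185 TPM in untreated AID-JARID2, and its part in the ligand levels was not tested. Other lists differed between the untreated lines as well. Pluripotent markers summed to 433 and 417 TPM in untreated AID-JARID2, against 197 and 206 TPM in untreated MTF2-AID and 176 and 157 TPM in untreated SUZ12-AID. Endothelial markers summed to 23.9 and 25.1 TPM in untreated AID-JARID2, against 120.5 and 116 TPM in untreated MTF2-AID and 104 and 125 TPM in untreated SUZ12-AID. Primitive blood markers summed to 7.83 and 6.15 TPM, against 17.7 and 12.5 TPM and 58.5 and 48.1 TPM, in the same order of lines. Cardiac sums were 2356 and 2293 TPM, against 1839 and 1786 TPM and 2737 and 3018 TPM, and neural ones 80.6 and 79.3 TPM, against 76.0 and 76.7 TPM and 40.4 and 41.7 TPM. Their part in the differences between untreated lines was not tested.

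**Figure D4:**
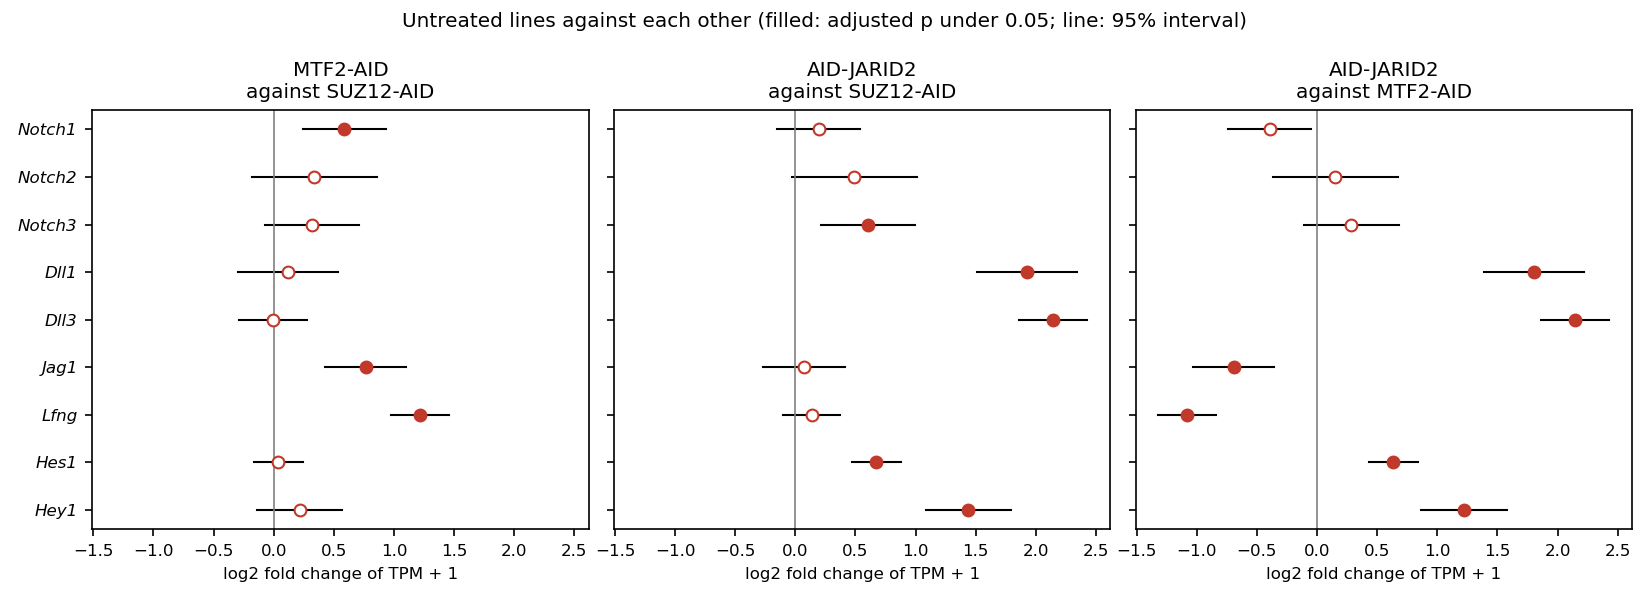
Log2 difference of TPM + 1 between untreated lines for the 9 genes tested, with 1 panel per pair, the first-named line minus the second and bars for the 95% interval from limma. Dll3 and Dll1 lie at 1.81 to 2.15 in both panels that set AID-JARID2 against another line.

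Hes1 had the highest mean level of the 10 genes in 5 of the 6 groups. In auxin AID-JARID2 it was at 49.9 TPM, below Dll3 at 59.2 TPM, and Heyl was the lowest in every group, at means of 0.00 to 0.257 TPM. The order of Hes1 ran from auxin AID-JARID2 at the bottom, through both SUZ12-AID and both MTF2-AID groups at means of 79.8 to 83.4 TPM, which overlapped their neighbours, to untreated AID-JARID2. Dll3 split the lines, with the 4 groups of the other lines at means of 16.1 to 19.6 TPM and overlapping, and the AID-JARID2 groups at 59.2 TPM with auxin and 74.5 TPM untreated. Lfng ran from SUZ12-AID, through AID-JARID2, to MTF2-AID, whose 2 groups overlapped.

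Levels of some pairs moved together over the 12 libraries, which share lines and treatments. Pearson's r of log2(TPM + 1) was 0.95 between Dll1 and Dll3, 0.82 between Notch2 and Notch3, 0.82 between Notch1 and Notch2, and 0.81 between Hes1 and Notch3. Lfng had an r of -0.31 with Hes1. The 3 receptors and Jag1 also shared the higher replicate 2 of SUZ12-AID, as the longest transcripts did. The part of that difference in their r values, with each other or with the genes most like them, was not tested. Among 10185 genes with a mean of at least 5 TPM, the pattern most like that of Dll3 was that of Vrtn (r = 0.99, 12 libraries), followed by Igfbp3 and Hist1h1c (both 0.99). Those most like Hes1 were Pdlim4 (0.98), Ifitm2 (0.97) and Ifitm1 (0.96), those most like Lfng were Sox13 (0.98), Ywhag (0.97) and Zfp664 (0.97), and those most like Dll1 were Mturn, Chst7 and Carhsp1 (all 0.98). Closest to Hey1 were Cdc45 (0.97), H1f0 (0.96) and Hoxb1 (0.96), to Jag1 Noa1 (0.97), Kif26a (0.96) and Med13l (0.96), to Notch1 Arid1b (0.97), Prrc2b (0.96) and Fam168b (0.96), to Notch2 Med12 (0.98), Ube3b (0.97) and Papd7 (0.97), and to Notch3 Dsp (0.96), Peg10 (0.95) and Rnf19a (0.95).

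Beyond the 10 genes, 58 other genes of the pathway were listed by role, of which 53 were tested. In AID-JARID2 15 rose and 13 fell with auxin, which is 52.8% of them, where 36.5% of all genes passed. In SUZ12-AID 11 rose and 0 fell, or 20.8%, where 19.1% of all genes passed and 15.1% rose, and in MTF2-AID 0 passed, where 0.0638% of all genes did. The shares in SUZ12-AID and MTF2-AID are near those of all genes. Their median log2 fold changes were 0.05, 0.13 and -0.04 in that order of lines, against 0.01, 0.06 and 0.01 over all genes.

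Other receptors and ligands held the largest of these changes. Dlk1, which lacks the Notch-binding DSL domain of the classical ligands, was at 2.73 and 2.88 TPM with auxin in AID-JARID2, against 54.1 and 47.2 TPM untreated, and fell by 3.76 (limma adjusted p = 2.575e-09). Jag2, the second Jagged ligand, was at 34.9 and 32.4 TPM, against 8.67 and 8.72 TPM, and rose by 1.84 (limma adjusted p = 8.479e-07). Jag2 rose while Dll1 fell. In SUZ12-AID, Jag2 also rose, by 0.94, and Notch4, an endothelial receptor that is among the endothelial markers above, was at 4.58 and 3.98 TPM with auxin against 1.19 and 0.948 TPM untreated, and rose by 1.35.

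The lists of regulators are small, and their counts in AID-JARID2 stand beside 19.5% of all genes higher and 17.0% lower. The fringe gene Mfng rose, by 1.08, as Lfng did, and of its list of 8 glycosylation and endocytosis genes 1 rose and 4 fell, among them the ligand ubiquitin ligase Mib2, by 0.60. Adam10, the protease of the first ligand-induced cut, fell by 0.67, and Psen2, a catalytic subunit of gamma-secretase, rose by 0.62, with 1 of 10 cleavage genes higher and 3 lower. Of 8 nuclear effectors 2 rose and 1 fell, with Rbpj at 0.33 and Maml1 at -0.44, and of 8 corepressor genes 2 rose and 2 fell, with Tle1 at 0.84 and Tle3 at -1.04. For nuclear effectors that is 37.5% called and for corepressors 50.0%, against 36.5% of all genes.

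Feedback inhibitors and relatives of HES and HEY were called in both directions in AID-JARID2. Dtx1, a Deltex ubiquitin ligase, was at 19.3 and 20.7 TPM with auxin, against 3.14 and 3.90 TPM untreated, and rose by 2.22 (limma adjusted p = 1.853e-06). Dtx4 rose by 1.35 and Nrarp, a direct Notch target that limits the signal, by 0.52, so that 3 of 9 inhibitor and turnover genes rose and 1 fell. Hey2, the ventricular relative of Hey1, was at 2.17 and 2.11 TPM with auxin, against 8.82 and 10.9 TPM untreated, and fell by 1.78 (limma adjusted p = 5.221e-06). The other 4 called genes of its list, of 5 tested, rose, with Bhlhe41 at 1.28 and Bhlhe40 at 0.92. Dtx1 (0.91), Nrarp (0.82) and Bhlhe40 (1.25) also rose in SUZ12-AID, where Hes1 and Hey1 were not called.

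**Figure D5:**
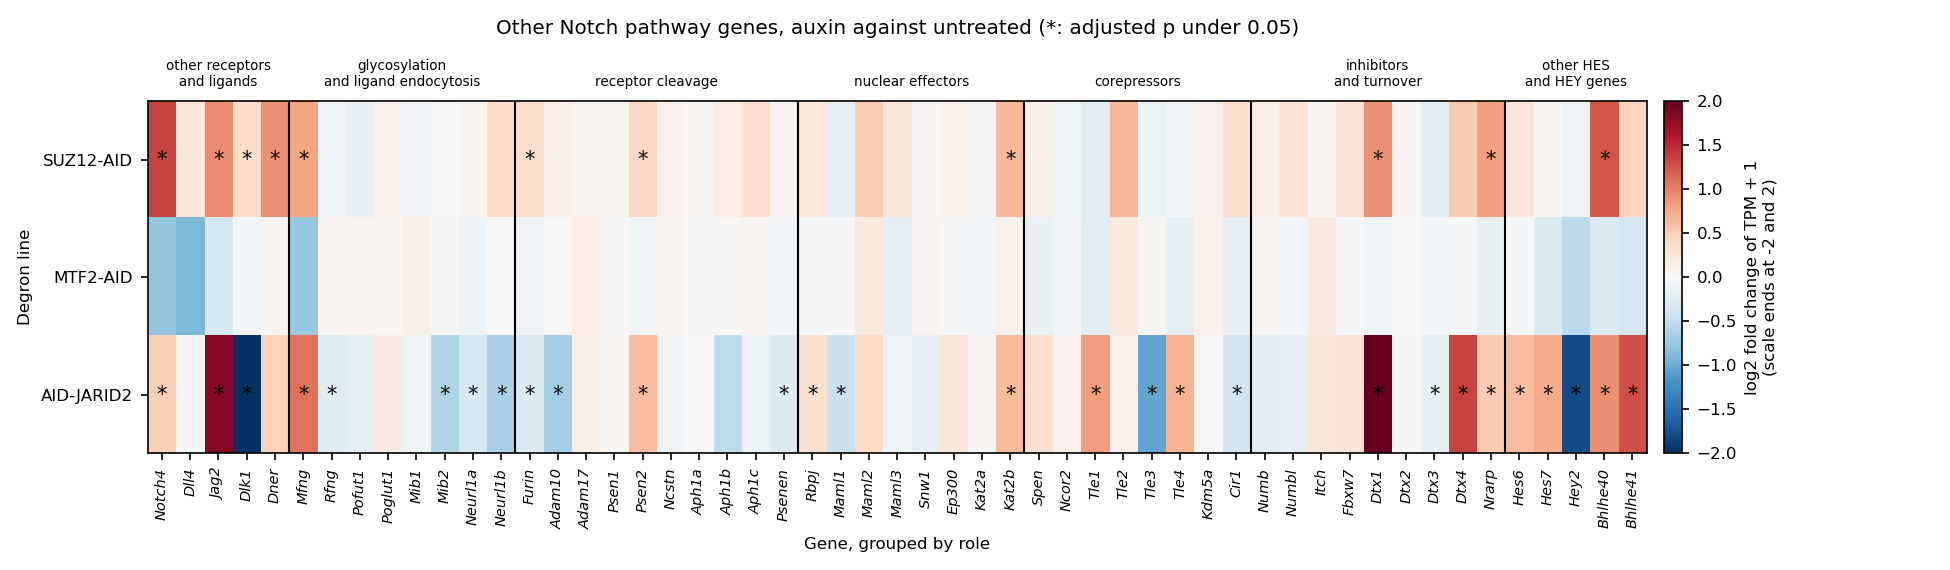
Log2 fold change of TPM + 1, auxin against untreated, of the other pathway genes tested, with 1 row per line, genes grouped by role and a star where the adjusted p was under 0.05. In AID-JARID2, 15 are called higher and 13 lower, in SUZ12-AID 11 and 0, and in MTF2-AID 0 and 0.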

How the data were processed

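RNA-seq libraries of 12 mouse samples labelled as cardiac precursors, 2 in each of 6 groups, were made from polyadenylated RNA by a stranded dUTP method, per the labels' protocols. The authors deposited 1 table of TPM values per gene symbol and library. STAR 2.6.1d and mm10 are named in the submitters' processing notes, while what computed TPM, and on which annotation, is not given in the sources used here. Samples were grouped by their titles, and library columns were matched to samples by name.

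TPM values of a gene stepped in equal units in each library once a length common to all libraries was divided out, so whole reads could be recovered: 100% of values came out whole within 0.001 reads. These are the smallest whole numbers that give the TPM values.

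Genes that reached 1 TPM in 2 or more libraries were kept. The log2(TPM + 1) values of all 12 libraries entered 1 linear model, with the 6 groups as terms, in limma 3.58.1 in R 4.3.3 (eBayes with a trend, 6 residual degrees of freedom). All p-values are two-sided and adjusted by the Benjamini-Hochberg method over all genes kept. The fitting code was tested on simulated data. Alternatives were pseudocounts of 0.1 and 5, other filters, median-of-ratios scaling, quantile normalization, a variance weight per line, voom on the recovered reads, a replicate block, each line alone, and leaving out each library. Gene positions came from gene models in mm10 and promoter sequences from RefSeq on GRCm38.p6.

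The genes and lists were chosen with earlier results of these data known. Named were all 10 genes, up to 3 genes per other list and line by size of change among those that passed without overlap, 3 genes per member by Pearson's r, and the tagged genes. The number of libraries limits the precision, since 2 per group leave few degrees of freedom.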

Additional observations from a re-analysis of the deposited data

Results flagged for a closer look

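The auxin effect differed between lines by a direct test of the difference (limma, adjusted over all genes) for 6 genes. Lfng differed in every pair of lines: by 1.32 on the log2 scale in AID-JARID2 minus SUZ12-AID, by 0.76 in AID-JARID2 minus MTF2-AID and by 0.57 in MTF2-AID minus SUZ12-AID. The last of these was lost on leaving out any 1 of the 4 AID-JARID2 or 4 MTF2-AID libraries, auxin SUZ12-AID replicate 1 or untreated SUZ12-AID replicate 2 (0.44 to 0.66, adjusted p 0.0551 to 0.15), at a pseudocount of 5 (0.41, adjusted p = 0.0515), with no filter (adjusted p = 0.0565) and with a variance weight per line (adjusted p = 0.0737).

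Hes1 differed by -1.34 in AID-JARID2 minus SUZ12-AID and by -1.34 in AID-JARID2 minus MTF2-AID, and both held in every alternative run. Notch3 differed by -1.24 from SUZ12-AID and by -0.90 from MTF2-AID. The second was lost without any 1 AID-JARID2 library, either auxin MTF2-AID library or untreated MTF2-AID replicate 1 (-0.95 to -0.84, adjusted p 0.0528 to 0.0787) and with no filter (adjusted p = 0.0585). Hey1 differed by -0.97 from MTF2-AID, a call lost without auxin AID-JARID2 replicate 1 (-0.84, adjusted p = 0.0503).

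Dll1 differed by -1.07 in AID-JARID2 minus SUZ12-AID, and that call was lost without auxin replicate 2 or untreated replicate 1 of AID-JARID2 (-1.01 to -0.998, adjusted p 0.0582 to 0.0583). Dll3 differed by -0.59 from SUZ12-AID and by -0.56 from MTF2-AID. The first was lost without any 1 AID-JARID2, SUZ12-AID or auxin MTF2-AID library (-0.67 to -0.51, adjusted p 0.0521 to 0.131), with no filter (adjusted p = 0.0697), with a variance weight (adjusted p = 0.094), under median-of-ratios scaling (-0.52, adjusted p = 0.0552) and under quantile normalization (-0.47, adjusted p = 0.0746). The second was lost without any 1 AID-JARID2 library, either auxin MTF2-AID library, either auxin SUZ12-AID library or untreated MTF2-AID replicate 1 (-0.64 to -0.36, adjusted p 0.0551 to 0.147), with no filter (adjusted p = 0.0824) and with a replicate block (adjusted p = 0.0557).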

How the results depend on the processing

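Of 81 values of single genes, 32 were called, of which 19 kept their call in every alternative, 13 lost it in at least 1 and 0 reversed, while 20 uncalled values changed sign. The cause was not tested for any of these. Calls in AID-JARID2 were 2 higher and 7 lower with a variance weight per line, where 3989 of all genes were higher and 3523 lower. They were 2 and 6 with voom, where 3404 and 2851 of all genes were called. With that line alone they were 1 and 7, where 3448 and 2948 were. With no filter they were 1 and 4 of 10 tested, where 3041 and 2428 of 26224 were. The count of Notch genes called in SUZ12-AID was 2 under quantile normalization and with voom on recovered reads. Voom there called 3010 of all genes higher and 734 lower. With a variance weight per line or that line alone the count was 0. In AID-JARID2 minus MTF2-AID it was 3 with no filter, where 1949 of all genes were higher and 1597 lower. In MTF2-AID minus SUZ12-AID it was 0 at a pseudocount of 5, with no filter or with a variance weight, and 2 with voom. Over all genes these settings called 327 and 1560, 285 and 1356, 187 and 916, and 303 and 1740. The count of Notch genes called also changed with the library left out in every comparison but auxin against untreated in MTF2-AID. Counts over all genes changed as well, and such fits can leave 1 library in a group.

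Uncalled log2 values that changed sign when 1 library was left out were Notch1 (-0.28 to 0.28), Notch2 (-0.64 to 0.27), Notch3 (-0.10 to 0.51) and Hes1 (-0.16 to 0.11) in SUZ12-AID, and Lfng (-0.0084 to 0.18), Hes1 (-0.057 to 0.016) and Hey1 (-0.34 to 0.17) in MTF2-AID. Differences between auxin effects that did so were Notch1 (-0.55 to 0.010) and Jag1 (-0.17 to 0.19) in AID-JARID2 minus SUZ12-AID, Notch1 (-0.048 to 0.0998) in AID-JARID2 minus MTF2-AID, and Notch2 (-0.22 to 0.69), Dll3 (-0.23 to 0.18) and Hes1 (-0.13 to 0.14) in MTF2-AID minus SUZ12-AID. In untreated cells they were Notch2 (-0.11 to 0.79), Dll3 (-0.22 to 0.20), Hes1 (-0.10 to 0.17) and Hey1 (-0.036 to 0.47) in MTF2-AID against SUZ12-AID, and Notch1 (-0.086 to 0.47) and Jag1 (-0.11 to 0.25) in AID-JARID2 against SUZ12-AID. With voom, Notch1 in SUZ12-AID was 0.0021, Jag1 in AID-JARID2 minus SUZ12-AID -0.0024, Hes1 in MTF2-AID minus SUZ12-AID -0.011 and Hes1 in untreated MTF2-AID against SUZ12-AID -0.037. Under quantile normalization, Jag1 in SUZ12-AID was -0.065, Dll3 in MTF2-AID minus SUZ12-AID 0.093 and Hes1 in untreated MTF2-AID against SUZ12-AID -0.0046, and under median-of-ratios scaling the last pair were 0.055 and -0.039.

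Replicate numbers were not said to pair samples, and deviations of same-numbered libraries from their group means correlated by 0.10 in SUZ12-AID, -0.04 in MTF2-AID and 0.01 in AID-JARID2. With a replicate block, 7 genes were called in AID-JARID2, 1 in SUZ12-AID and 0 in MTF2-AID. Over all genes it called 3385 higher and 2939 lower, 2541 and 792, and 3 and 1, in that order. The block called 7 genes in AID-JARID2 minus SUZ12-AID, 5 in AID-JARID2 minus MTF2-AID and 1 in MTF2-AID minus SUZ12-AID. Over all genes these were 1671 and 2632, 2282 and 2141, and 401 and 1564. In untreated cells it called 3 in MTF2-AID against SUZ12-AID, 5 in AID-JARID2 against SUZ12-AID and 6 in AID-JARID2 against MTF2-AID. Over all genes these were 989 and 546, 2630 and 2000, and 2572 and 2849. In AID-JARID2 the block called Notch1 (adjusted p = 0.0488), and in AID-JARID2 minus SUZ12-AID it called Notch2 and Hey1 (adjusted p = 0.0464 and 0.0437). In AID-JARID2 minus MTF2-AID it called Notch2 (adjusted p = 0.0127) and not Dll3. Depth limits Heyl, at 0 to 11 reads per library.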
